A study of Mus musculus with 41 samples.

Results

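The AP-2 transcription factors were examined through the genomic neighbourhoods of 3 of their genes, *Tfap2a*, *Tfap2b* and *Tfap2c*, out of 21911 protein-coding genes whose loci were counted in the same way. For each gene, the peaks of 16 pooled CUT&RUN (CNR) lists were taken that overlapped the gene body or the 50 kb to each side of it. CNR maps a protein on chromatin by sequencing the short DNA fragments that an antibody-tethered nuclease releases around it. The rule that picked the peaks used position alone and no measured value. In mm10, *Tfap2a* (ENSMUSG00000021359.16) lies on the minus strand at chr13:40715302-40738376, *Tfap2b* (ENSMUSG00000025927.13) on the plus strand at chr1:19208914-19238576 and *Tfap2c* (ENSMUSG00000028640.11) on the plus strand at chr2:172549593-172558622. The loci spanned 123 kb, 130 kb and 109 kb, against a median of 117 kb over all protein-coding loci. Only the *Tfap2b* locus reached another protein-coding gene, its family member *Tfap2d*, and the others held lincRNAs, antisense genes and pseudogenes beside the AP-2 gene.

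AP-2 proteins bind GC-rich palindromic DNA as dimers through a helix-span-helix domain and activate or repress nearby genes. AP-2α (encoded by *Tfap2a*) and AP-2γ (*Tfap2c*) are known regulators of the surface ectoderm and of keratinocyte gene expression, and AP-2β (*Tfap2b*) is best known from the neural crest and the kidney. SOX9 is an HMG-box factor of the hair follicle stem cell, and MLL3 and MLL4 are histone methyltransferases that act at enhancers.

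All sorted cells came from male CD1 mice of genotype K14rtTA; TRE-myc-Sox9, in which the *Krt14* promoter drives the doxycycline (DOX) dependent activator rtTA in skin epithelium and rtTA in turn switches on MYC-tagged *Sox9*. Epidermal stem cells (EpdSCs) of back skin were sorted as Ly6A-high and CD49f-high cells free of the blood, endothelial, fibroblast and hair follicle stem cell markers of the gate. SOX9 CNR was made without DOX (D0, postnatal day 21) and after 1, 2, 6 and 12 weeks of DOX (W1, W2, W6 and W12), and MLL3/4 CNR at D0, W1 and W2. Age ran with DOX, from postnatal day 28 (W1) through 35 (W2) to 63 (W6), and W12 was newborn skin grafted onto immunocompromised Nude female hosts, so weeks of DOX cannot be told apart from age and, at W12, from grafting. In culture, keratinocytes from newborn back skin with rtTA carried, by lentivirus, 1 of 3 MYC-tagged forms of SOX9: the wild type (WT-SOX9), a form that lacks the transactivation domain (dTA-SOX9) and a form (dHMG-SOX9) whose HMG domain, which binds DNA, is missing. CNR of the MYC tag and of MLL3/4 was made from WT-SOX9 keratinocytes kept free of DOX, and from every line given 1 µg/ml DOX. Each list pooled 2 samples, so a difference between lists had no replicate error and was not tested, and the intervals given are 95% Wilson intervals over peaks that cover counting error only. No RNA was measured in these samples.

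Of 41 samples, 32 stood behind the lists and 9 were not analysed here. The SOX9 lists held 792 peaks at D0 and 9745 to 20579 later, the sorted MLL3/4 lists 29281 to 37072, the MYC-tag lists 2242 to 11341 and the cultured MLL3/4 lists 10543 to 33975, of which WT-SOX9 with DOX was the shortest. One fragment was worth 30.7 to 76.4 RPKM (a depth-scaled coverage) in the SOX9 lists and 164 to 248 RPKM in the MYC-tag lists, so the weakest SOX9 peaks rested on 24 to 59 fragments and the weakest MYC-tag peaks on 8 to 11. The depth of the MLL3/4 lists, which hold unscaled coverage, is unknown. The descriptions of both WT-SOX9 MLL3/4 samples with DOX name replicate 2, although their titles name replicates 1 and 2. At D0, MLL3/4 peaks lay at the loci of all 4 basal markers (*Krt5*, *Krt14*, *Itga6* and *Itgb4*, 5 to 18 peaks), whereas *Ptprc*, *Kit* and *Cd34*, markers of cells that the gate removed, had 0, *Pdgfra* had 2 and *Pecam1* had 18, in windows that also take in neighbouring genes. Without DOX in culture, the basal markers had 7 to 14 peaks, *Ptprc* 1, *Kit* 0, *Pdgfra* 0, *Cd34* 2 and *Pecam1* 11.

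The DNA under the strongest sites is shown first, since SOX9 maxima recurred there within 19 bp over the induced times. For each gene, the window below reaches 50 bp to each side of the maximum of the W2 SOX9 peak of highest total signal (the summed signal over the peak), read from the plus strand of GRCm38.p6. A 4th window lies under the only WT-SOX9 MYC-tag peak of the 3 loci. Capitals mark SOX words, that is CCATTGT or CCTTTGT or GCATTGT or GCTTTGT on either strand.
*Tfap2a*, SOX9 W2, chr13:40684002-40684102: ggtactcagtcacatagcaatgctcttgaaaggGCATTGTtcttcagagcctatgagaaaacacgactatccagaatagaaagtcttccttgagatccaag
*Tfap2b*, SOX9 W2, chr1:19205811-19205911: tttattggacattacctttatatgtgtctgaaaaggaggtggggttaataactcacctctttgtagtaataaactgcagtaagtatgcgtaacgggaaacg
*Tfap2c*, SOX9 W2, chr2:172585235-172585335: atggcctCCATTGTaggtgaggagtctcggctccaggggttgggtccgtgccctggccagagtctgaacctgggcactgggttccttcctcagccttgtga
*Tfap2a*, MYC-tag WT-SOX9, chr13:40694587-40694687: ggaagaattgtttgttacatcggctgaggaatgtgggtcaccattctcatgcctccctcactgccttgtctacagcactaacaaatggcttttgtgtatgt

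The *Tfap2a* window held 1 SOX word, starting at base 34 from its left end, and the *Tfap2c* window 1, starting at base 8. The *Tfap2b* window and the cultured *Tfap2a* window held none of the words searched, which were also those of AP-2 (GCCNNNGGC), AP1 (TGACTCA or its reverse complement TGAGTCA) and RUNX (AACCACA), and for GATA factors AGATAAG or AGATAAC. Over all W2 SOX9 windows, 15.5% held the SOX word, 5.32% the AP-2 word, 15.7% the AP1 word, 2.70% the GATA word and 2.06% the RUNX word. In windows 1 kb away these shares were 6.26%, 2.28%, 2.00%, 2.30% and 2.45%. Over the WT-SOX9 MYC-tag list the SOX word stood in 34.2% of windows.

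**Figure D1:**
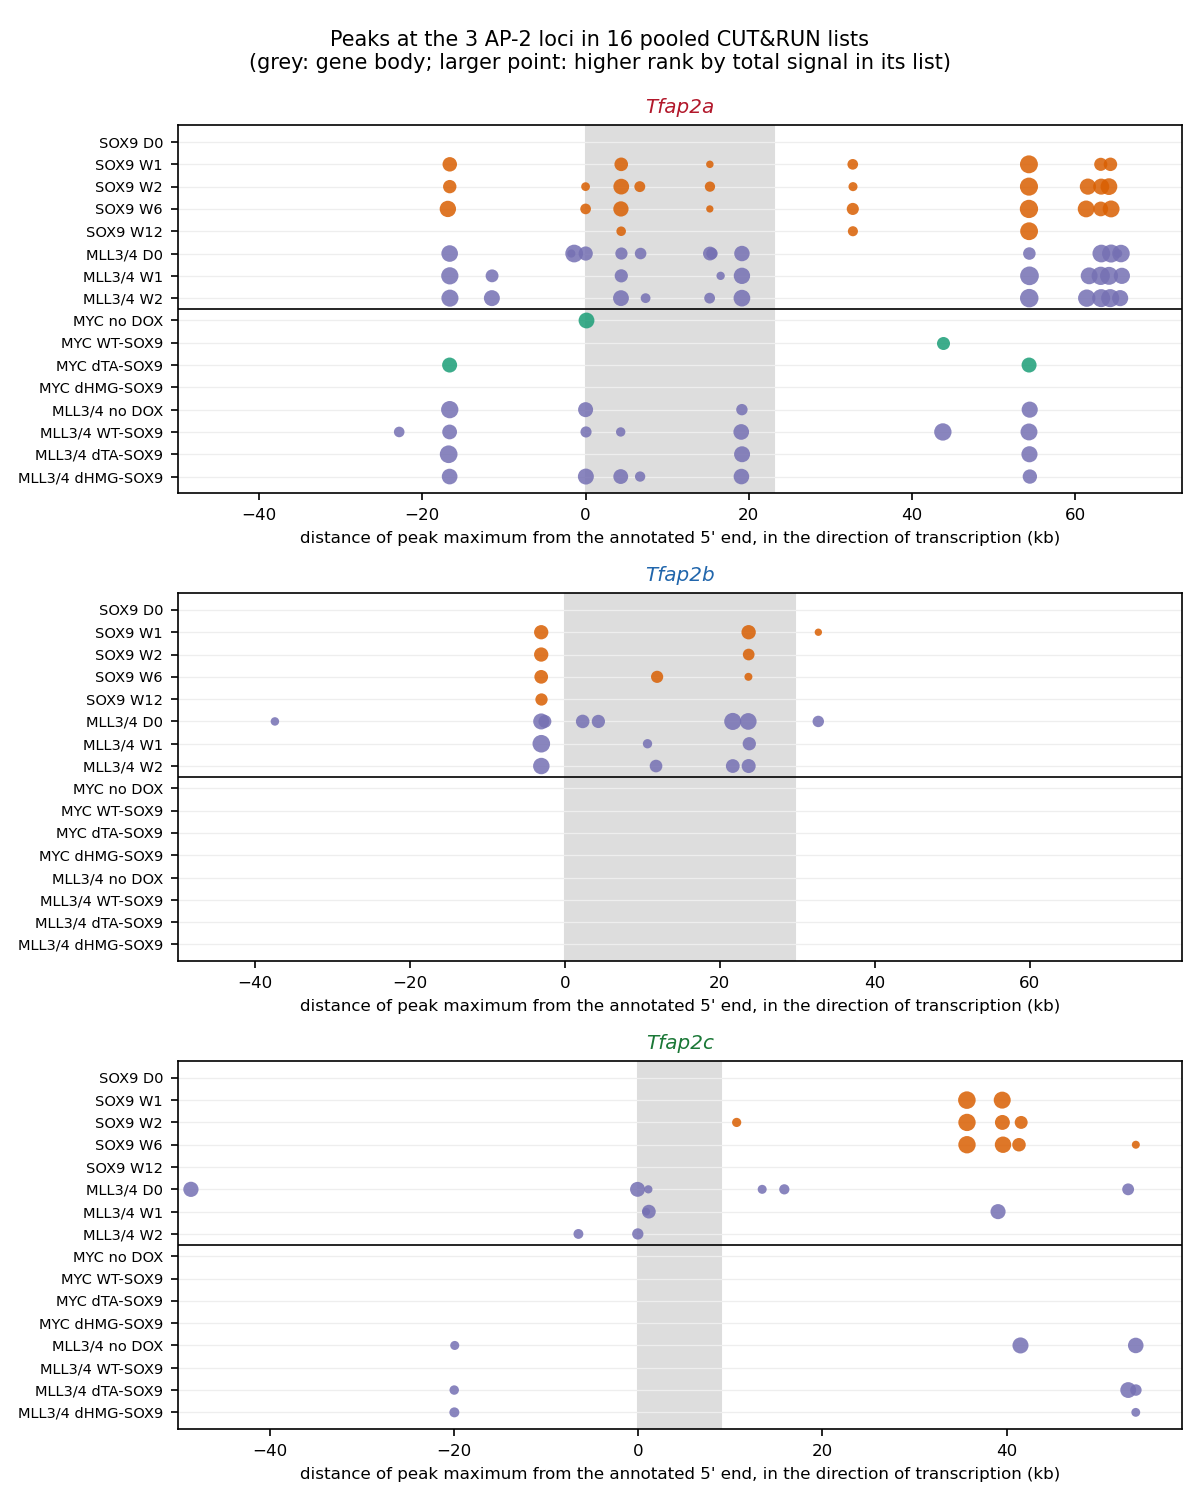
Each point is a peak of 1 of the 16 pooled lists (rows), placed by the distance in kb of its maximum from the annotated 5′ end of *Tfap2a* (top), *Tfap2b* (middle) or *Tfap2c* (bottom), with the gene body in grey and larger points for peaks that rank higher by total signal in their own list. SOX9 recurred 54.3 kb downstream of the *Tfap2a* 5′ end, 3.05 kb upstream of that of *Tfap2b* and 35.7 kb downstream of that of *Tfap2c*, and the *Tfap2b* rows of cultured cells (below the black line) are empty.

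SOX9 was absent from all 3 AP-2 loci at D0 and appeared at each of them within 1 week of DOX. At *Tfap2a* the 5 lists from D0 to W12 held, in order of time, 0, 7, 10, 9 and 3 SOX9 peaks. The *Tfap2b* locus had 0, 3, 2, 3 and 1 peaks, and the *Tfap2c* locus had 0, 2, 4, 4 and 0. *Tfap2a* therefore carried most of the family's SOX9 peaks at every induced time, and *Tfap2c* was the only member without SOX9 at W12.

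Over all protein-coding genes, 6.03% had at least 1 SOX9 peak at D0, and in the induced lists, in order of time, 52.4%, 57.5%, 58.7% and 39.8% did, so that SOX9 at a member locus was common at the induced times. A SOX9 peak in each of the 4 induced lists was found at *Tfap2a* and *Tfap2b* and at 32.4% of all genes. The number of peaks set *Tfap2a* further from the middle of the genes: 3.14% of all genes had as many or more in the W1 list, 1.82% in that of W2, 2.51% in that of W6 and 7.88% in that of W12. For *Tfap2b* these shares were 20.4%, 39.2%, 27.0% and 39.8%, and for *Tfap2c* they were 32.9%, 18.2% and 18.0% at W1 to W6, against a median of 1 peak per gene at each of these 3 times. Taken in lists cut to the size of the W12 list, the 3 loci together had 9, 8, 8 and 4 peaks over the induced times, in place of 12, 16, 16 and 4.

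**Figure D2:**
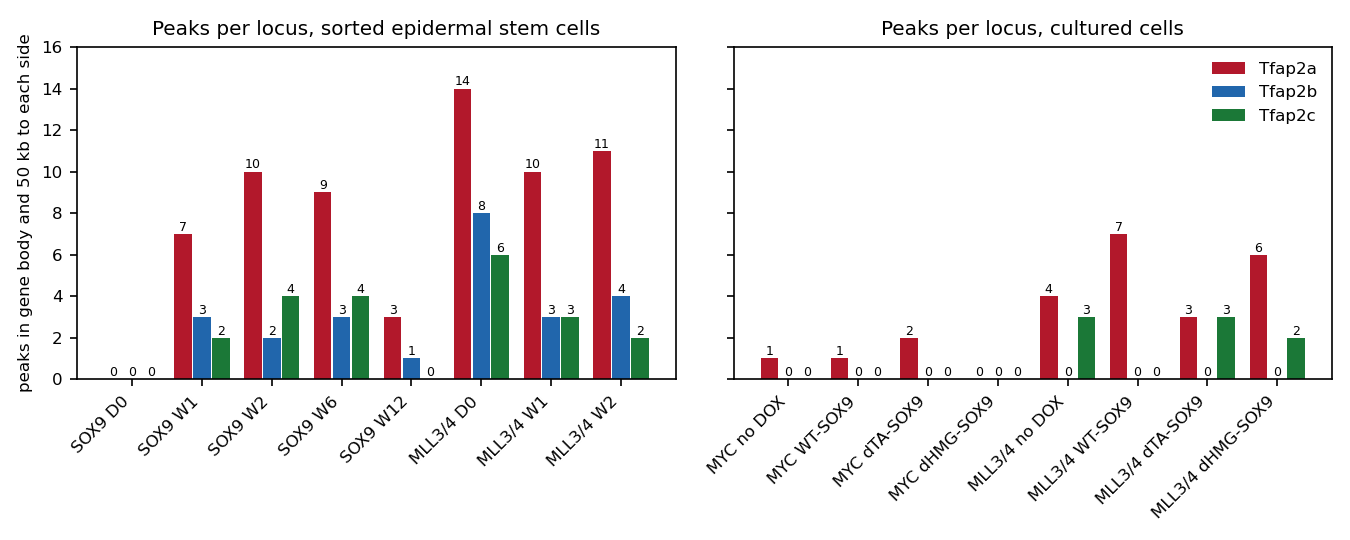
Bars give the peaks in the gene body and 50 kb to each side for *Tfap2a*, *Tfap2b* and *Tfap2c* in each pooled list, from sorted cells (left) and cultured cells (right), with the count above each bar and no error bars, since each list is 1 pool. SOX9 rises from 0 at D0 to between 2 and 10 at W2, while MLL3/4 falls from 14, 8 and 6 peaks at D0 to 10, 3 and 3 at W1.

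Merged over W1 to W12, the SOX9 peaks formed 19 sites, 10 at *Tfap2a*, 4 at *Tfap2b* and 5 at *Tfap2c*. Of these, 4 were present at all 4 induced times, 7 at 3 of them, 3 at 2 and 5 at 1. Of the 12 peaks of W1, 11 were overlapped at W2, and of the 16 of W2, 14 were overlapped at W6 (87.5%, 64.0 to 96.5%), against 77.7% and 75.1% of the whole lists. From W6 to W12, 4 of 16 persisted (25%, 10.2 to 49.5%), against 39.7% of the whole W6 list. At *Tfap2c* none of the 4 W6 peaks was found in the grafted W12 skin.

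The strongest SOX9 site of the family lay downstream of *Tfap2a*, between genes, 54.3 kb from the 5′ end. Its maximum was 5705 RPKM (99 fragments) at W1 and 7334 RPKM (96 fragments) at W2. Later it was 5205 RPKM (124 fragments, W6) and 5193 RPKM (113 fragments, W12). It ranked 1802 of 15651, 1789 of 18657, 1445 of 20579 and 1259 of 9745 by total signal, the first of its locus in each list. The 4 maxima fell within 19 bp of each other, and the SOX word shown in capitals above stood in all 4 windows.

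Both other *Tfap2a* sites of all 4 induced times were weaker. One lay 4.36 kb downstream of the 5′ end, within 1 kb of an inner annotated start of *Tfap2a*, with maxima of 3688, 4737, 3316 and 2114 RPKM in order of time. The other lay 32.7 kb downstream in an exon of the lincRNA *Gm9979*, with 3342, 2980, 3904 and 2941 RPKM. Neither held a SOX word, and an AP-2 word stood in the W6 window of the first. At the outermost annotated *Tfap2a* 5′ end, SOX9 was listed at W2 (1834 RPKM, 24 fragments) and W6 (1805 RPKM, 43 fragments). It was listed there at neither W1 nor W12. Both maxima were close to the limit of 1800 RPKM that the authors set.

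*Tfap2b* had 1 site at all 4 induced times, between genes 3.05 kb upstream of its 5′ end, at chr1:19205594-19206353 in the W1 list. The maximum was 3227 RPKM (56 fragments) at W1 and 4813 RPKM (63 fragments) at W2, then 3568 RPKM (85 fragments, W6) and 3079 RPKM (67 fragments, W12). These maxima lay within 8 bp of each other, in the window without any of the words. A 2nd site, 23.7 kb downstream in an intron of *Tfap2b*, was present at W1, W2 and W6 with the AP1 word in all 3 windows, and was the first of its locus by total signal at W1 (rank 7739, against 7790 for the upstream site).

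*Tfap2c* had no SOX9 peak within 10 kb of its 5′ end, and its SOX9 peaks all lay beyond the 3′ end. The strongest by total signal, 35.7 kb downstream of the 5′ end, had a maximum of 2824 RPKM (49 fragments) at W1, 2980 RPKM (39 fragments) at W2 and 3442 RPKM (82 fragments) at W6, within 12 bp. The site 39.5 kb downstream had 3285, 3056 and 2645 RPKM at the same times, a higher maximum at W1 and W2 and a lower one at W6. SOX words stood in all 3 windows of the former and in those of W1 and W2 of the latter. Over the family, 3 of 19 SOX9 sites held a SOX word in any window, 3 an AP1 word, 2 an AP-2 word and 0 a GATA or RUNX word. By peaks, 3 of 12 windows held the SOX word in the W1 list, 3 of 16 in that of W2, 2 of 16 in that of W6 and 1 of 4 in that of W12, beside 18.5%, 15.5%, 18.8% and 24.8% of the whole lists.

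**Figure D3:**
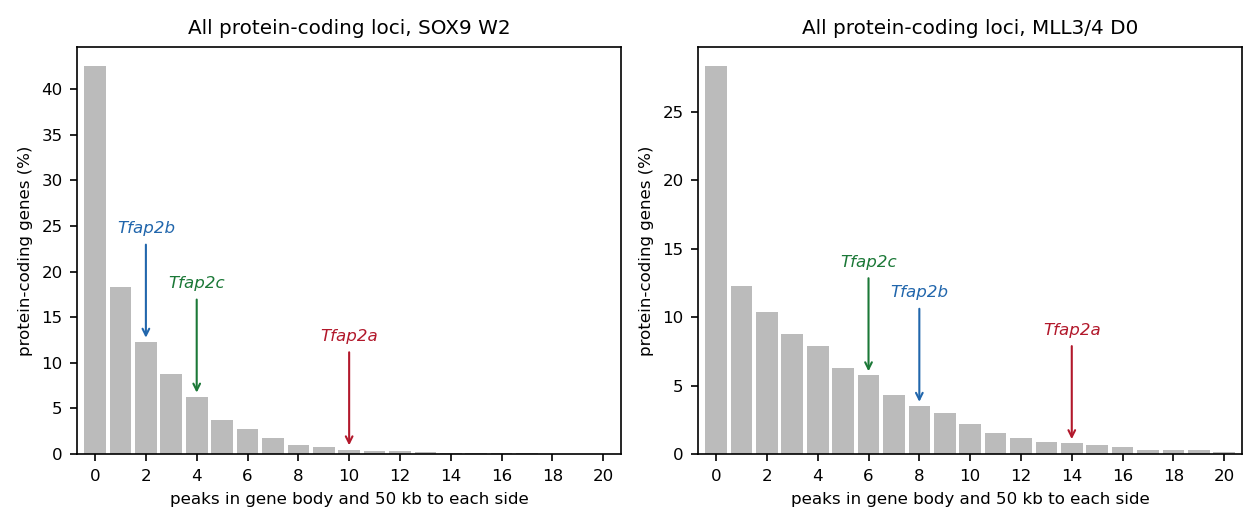
Bars give the percentage of all 21911 protein-coding genes with 0 to 20 peaks in the gene body and 50 kb to each side, for SOX9 at W2 (left) and MLL3/4 at D0 (right), and arrows mark the 3 AP-2 genes. *Tfap2a*, with 10 and 14 peaks, sits in the tail of both, and *Tfap2b* and *Tfap2c* have 2 and 4 SOX9 and 8 and 6 MLL3/4 peaks.

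MLL3/4 peaks became fewer at all 3 AP-2 loci after induction, as they did at 48.2% of all genes at W1 and 49.0% at W2, and at 67.3% and 68.3% of the 15710 genes with at least 1 D0 peak. *Tfap2a* had 14 MLL3/4 peaks at D0, 10 at W1 and 11 at W2, *Tfap2b* had 8, 3 and 4, and *Tfap2c* had 6, 3 and 2. At D0, 71.7% of genes had at least 1 MLL3/4 peak, with a median of 2, and 3.72%, 16.1% and 26.1% had at least as many as *Tfap2a*, *Tfap2b* and *Tfap2c*.

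A D0 peak was counted as lost where no later peak overlapped it, and a later peak as gained where no D0 peak did. At W1, *Tfap2a* lost 6 of 14 peaks and gained 3, *Tfap2b* lost 5 of 8 and gained 1, and *Tfap2c* lost 5 of 6 and gained 2. Together 16 of 28 were lost (57.1%, 39.1 to 73.5%), an interval that holds the 48.5% of the whole list, and 6 of 16 W1 peaks were gained, against 39.7%. At W2, 15 of 28 were lost and 5 of 17 gained, against 48.7% and 35.7%. Loss or gain of at least 1 peak was no mark of these genes, since 63.5% of all genes lost and 45.6% gained a peak at W1, and 63.2% and 42.2% at W2.

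Of the 7 D0 peaks within 1 kb of an annotated start of *Tfap2a*, *Tfap2b* or *Tfap2c*, 5 were lost at W1 and 5 at W2 (71.4%, 35.9 to 91.8%), an interval that holds the 52.6% and 49.4% of all D0 peaks within 1 kb of any start. At *Tfap2a* the peak at the outermost 5′ end (chr13:40738220-40738473, rank 18679 of 37072) was absent at W1 and W2. So were peaks 1.40 kb and 1.75 kb upstream of it, the first of which (chr13:40739184-40740000, rank 4964) was the strongest peak lost at this locus. At *Tfap2b* the peaks 2.30 kb and 4.33 kb downstream of the 5′ end, each within 1 kb of a different inner start, were lost at both times. At *Tfap2c* the peak at the 5′ end (rank 16178) was absent at W1 and present at W2 (rank 21993 of 29281), while the peak 1.10 kb downstream was present at W1 and absent at W2. The strongest lost peaks of the other 2 loci lay 21.7 kb downstream of the *Tfap2b* 5′ end in an intron (rank 7749, listed again at W2) and 48.5 kb upstream of *Tfap2c* (rank 15089).

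The outermost *Tfap2a* 5′ end lost its MLL3/4 peaks, while the inner start 4.36 kb downstream kept one at W1 and W2. The distal site 54.3 kb downstream, which SOX9 occupied at all 4 induced times, became the strongest of the locus. Its MLL3/4 peak had a maximum coverage of 7 at D0, 22 at W1 and 16 at W2, on scales that were not made comparable, and ranked 24241 of 37072, 632 of 31539 and 1347 of 29281. As a percentage of the list, the rank moved from 65.4% at D0 to 2.00% at W1 and 4.60% at W2, where 0 is the strongest. Of 19109 D0 peaks kept at W1, 41.8% moved up and 2.25% moved up as far, which only a peak low in the D0 list could do. A D0 peak 65.2 kb downstream of the *Tfap2a* 5′ end, at a site with no SOX9 at any induced time, moved almost as far, from 91.9% to 30.4% at W1 (2.48% of kept peaks moved as far), where the W1 peak also covered a neighbouring D0 peak at 15.6%. Both peaks were singled out after their values were seen.

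The site upstream of *Tfap2b* stood at 32.4% at D0, 15.2% at W1 and 27.8% at W2, moves that 19.8% and 32.2% of kept D0 peaks matched or passed. It was the first MLL3/4 peak of its locus at W1 and W2, a place held at D0 by the intronic peak 21.7 kb downstream (20.9%), and its W1 peak also covered a neighbouring D0 peak at 62.5%. The intronic *Tfap2b* site with the AP1 word stood at 25.2%, 59.1% and 52.3%, and 88.2% and 80.8% of kept D0 peaks had a higher or equal move. Of the inner starts of *Tfap2a*, the site 4.36 kb downstream went from 68.0% to 59.7% and 34.5%. The site 6.68 kb downstream, at 73.1% at D0, was listed at neither W1 nor W2. Near it, a site 7.35 kb downstream was gained at W2 (85.6%). Of the 9 MLL3/4 sites listed at D0, W1 and W2 at the 3 loci, 7 were at *Tfap2a*, 2 at *Tfap2b* and none at *Tfap2c*.

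**Figure D4:**
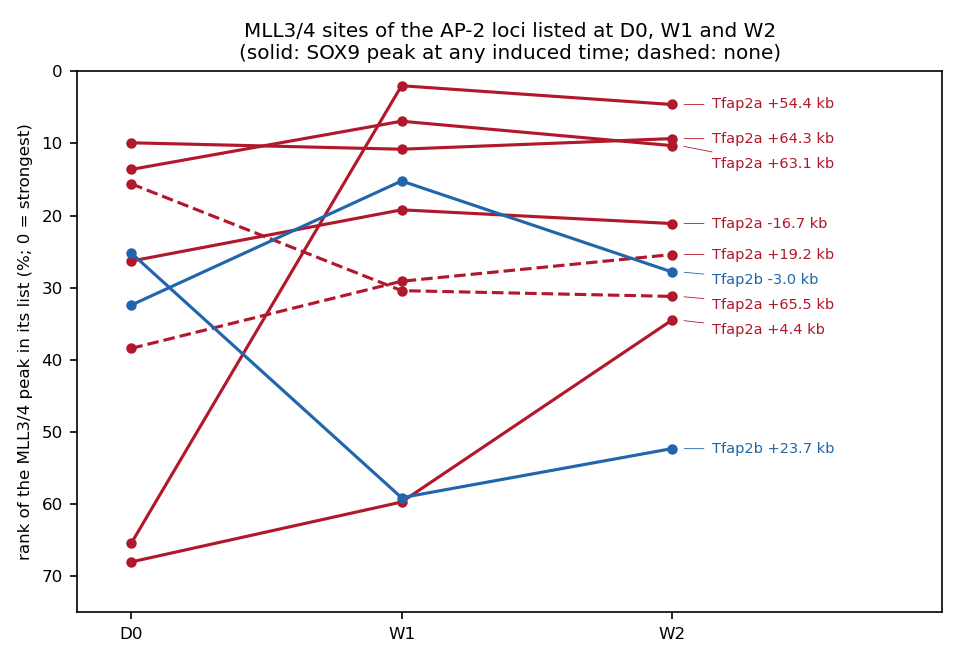
Each line is 1 of the 9 MLL3/4 sites of the AP-2 loci listed at D0, W1 and W2 (*Tfap2a* red, *Tfap2b* blue), labelled by its distance in kb from the 5′ end, and the axis gives the rank of its strongest peak as a percentage of the list, with the strongest at the top. Solid lines mark sites with SOX9 at any induced time, and the *Tfap2a* site at 54.4 kb (where the SOX9 maxima lay at 54.3 kb) moves from 65.4% to 2.00%.

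At W1, 8 of 12 SOX9 peaks of the 3 loci overlapped a W1 MLL3/4 peak (66.7%, 39.1 to 86.2%), beside 82.0% of the whole list, and at W2 9 of 16 did (56.2%, 33.2 to 76.9%), beside 78.7%. At W1, 7 of 10 kept MLL3/4 peaks overlapped a W1 SOX9 peak (70.0%, 39.7 to 89.2%), 5 of 7 at *Tfap2a*, 2 of 2 at *Tfap2b* and 0 of 1 at *Tfap2c*, and the interval holds the 55.0% of all kept peaks. Of the lost peaks 2 of 16 did, beside 7.58%, and of the gained peaks 1 of 6, beside 30.5%. At W2, 8 of 12 kept, 2 of 15 lost and 1 of 5 gained peaks overlapped a W2 SOX9 peak, beside 58.4%, 9.06% and 38.5%. The single gained peak with SOX9 at W1 lay 39.1 kb downstream of the *Tfap2c* 5′ end (chr2:172588481-172588877, rank 13293 of 31539) at the edge of the SOX9 site described above, was the strongest MLL3/4 peak of that locus at W1 and was not listed at W2. The gained *Tfap2a* peak with SOX9 at W2 lay 61.4 kb downstream. It was listed at W1 and W2, and SOX9 was listed there at W2 and W6 but not at W1.

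Seen from SOX9, the loci differed. Of the 10 SOX9 sites of *Tfap2a*, 8 had an MLL3/4 peak at D0, 1 only later and 1, in the *Gm9979* exon, in no sorted list. Of the 4 sites of *Tfap2b*, 3 had MLL3/4 at D0 and 1 only later. None of the 5 sites of *Tfap2c* had MLL3/4 at D0, 1 had it later and 4 had it in no sorted list, the site 35.7 kb downstream among them. In whole lists, 67.7% of W1 SOX9 peaks lay on a D0 MLL3/4 peak, which held for 6 of 7 peaks at *Tfap2a*, 3 of 3 at *Tfap2b* and 0 of 2 at *Tfap2c*. A site 11.5 kb upstream of *Tfap2a*, which MLL3/4 gained at W1 and kept at W2, had a SOX word at its maximum and no SOX9 peak at any induced time. The word stood in 12.6% of all MLL3/4 peaks gained at W1 more than 1 kb from a start, beside 6.61% of windows 1 kb away.

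In culture the AP-2 loci looked different from those of the sorted cells. The MYC-tag lists, which read the tagged SOX9 itself, held 1 peak at *Tfap2a* before DOX and after it 1 in WT-SOX9 cells, 2 under dTA-SOX9 and 0 under dHMG-SOX9, and 0 at *Tfap2b* and *Tfap2c* in all 4. Over all genes, 20.1%, 32.0%, 41.0% and 29.3% had at least 1 peak in these lists. MLL3/4 had 4, 7, 3 and 6 peaks at *Tfap2a*, 3, 0, 3 and 2 at *Tfap2c* and 0 in each list at *Tfap2b*, where 70.9%, 42.4%, 65.9% and 64.2% of genes had at least 1. Thus *Tfap2b* had no peak in any of the 8 cultured lists and in neither list of replicate 1 alone.

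The MYC-tag peak without DOX lay at the outermost *Tfap2a* 5′ end (2024 RPKM, 10 fragments), where the tag had not been induced. With WT-SOX9 the MYC-tag peak lay 43.7 kb downstream (chr13:40694541-40694709, 2298 RPKM, 14 fragments), at a place with no peak in any sorted list. The WT-SOX9 MLL3/4 list gained a peak there (chr13:40694450-40694796), which ranked 1888 of 10543 and was the strongest of the locus in that list. No other cultured MLL3/4 list had one. Of the 3 MLL3/4 peaks gained at *Tfap2a* with WT-SOX9, 1 overlapped a MYC-tag peak (33.3%, 6.15 to 79.2%). The interval holds the 53.5% of all peaks gained in that list. None of the 12 SOX9 peaks of W1 at the 3 loci overlapped a WT-SOX9 MYC-tag peak (0%, 0 to 24.2%). The interval holds the 15.4% of the whole W1 list.

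The dTA-SOX9 peaks overlapped 2 of the 12 SOX9 peaks of W1 (16.7%, 4.70 to 44.8%), close to the 18.9% of the whole list. One was the site 54.3 kb downstream of *Tfap2a* (4102 RPKM, 20 fragments), with its maximum 54337 bp from the 5′ end, where those of the sorted cells lay 54321 to 54340 bp from it. The other was 16.7 kb upstream of *Tfap2a* (2051 RPKM, 10 fragments), at the start of the lincRNA *Gm48107*. MLL3/4 was present at both in all 4 cultured lists. At the downstream site its rank was 31.4% of the list before DOX, 22.9% for WT-SOX9, 31.6% for dTA-SOX9 and 49.2% for dHMG-SOX9. These lists held 33975, 10543, 25948 and 23301 peaks, so the percentages are not on the same scale and give no measure of change.

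With WT-SOX9, whose list was the shortest and lost 82.0% of all no-DOX peaks, *Tfap2a* kept 4 of 4 no-DOX peaks and gained 3, and 1.10% of all genes had at least as many as its 7 peaks. *Tfap2c* lost its 3 of 3 in the same list. The kept and gained counts depended on list length, since in lists of equal size only 1 no-DOX peak of the 3 loci was left and the gained share with WT-SOX9 was 85.7% in place of 42.9%. With dTA-SOX9, *Tfap2a* kept 3 of 4, without the peak at the 5′ end, and *Tfap2c* 2 of 3, and with dHMG-SOX9 they kept 4 of 4 and 2 of 3, where 44.3% and 43.5% of all no-DOX peaks were lost.

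Sorted and cultured cells were compared in both directions. Of the 28 D0 peaks, 4 were overlapped by the no-DOX list (14.3%, 5.70 to 31.5%), all of them at *Tfap2a*, beside 40.4% of all D0 peaks. Of the 7 no-DOX peaks, 4 lay on a D0 peak (57.1%, 25 to 84.2%), an interval that holds the 44.6% of the whole list. Over all lists, 3 merged sites had peaks from cultured cells alone. They were the WT-SOX9 site 43.8 kb downstream and one 22.8 kb upstream of *Tfap2a*, and one 19.9 kb upstream of *Tfap2c* that was listed without DOX and with both mutants.

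Of the other family members, *Tfap2d* had 0 SOX9 peaks at D0 and 1 at each induced time, which was the site upstream of *Tfap2b*, since both windows take it in. *Tfap2e* had 1 SOX9 peak, at W2. MLL3/4 peaks numbered 5, 2 and 1 at *Tfap2d* and 5, 1 and 1 at *Tfap2e* at D0, W1 and W2. All 5 D0 peaks of *Tfap2d* were also counted at *Tfap2b*. Of the 8 cultured lists only MLL3/4 with dHMG-SOX9 held a peak, 1 at *Tfap2e*.

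Of the 13 other genes of the AP-2 pathway, 6 had SOX9 in all 4 induced lists, beside 32.4% of all genes, 1 had none and 10 of the 12 with a D0 MLL3/4 peak had fewer at W1, beside 67.3%. *Tfap2d* counts among the 6 and the 10 through peaks that it shares with *Tfap2b*. Among the keratin genes of the basal layer, *Krt14* had 12 SOX9 sites over W1 to W12 in a window of 104 kb and *Krt5* had 9 in 106 kb. *Egfr*, the growth factor receptor gene, had 12 in a window of 266 kb, and its relative *Erbb2* had 1 in 125 kb. Unlike the AP-2 genes, *Krt14*, *Krt5* and *Egfr* already had SOX9 peaks at D0, 2, 1 and 1. *Krt14* and *Krt5* each had 1 MYC-tag peak without DOX, and the dHMG-SOX9 list held 4, 2 and 1 MYC-tag peaks at *Krt14*, *Krt5* and *Egfr*. *Cebpa*, which encodes a factor of keratinocyte differentiation, had 6 sites and lost 9 of 14 D0 MLL3/4 peaks at W1. Among the genes of AP-2 coactivators, *Cited2* had 7 SOX9 sites and 10, 11 and 11 MLL3/4 peaks, *Cited4* had 4 SOX9 sites, and *Cited1* had no peak in any of the 16 lists. *Kctd1* and *Kctd15*, whose products repress AP-2 activity, had 3 and 2 SOX9 sites in windows of 283 kb and 118 kb and lost 6 of 11 and 5 of 7 MLL3/4 peaks at W1. *Wwox*, whose product binds AP-2γ, had 1 site in a window of 1010 kb.

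The genes whose counts over the 16 lists were most like those of the AP-2 genes were found by Euclidean distance on log2(count + 1), leaving out genes whose windows overlapped. Nearest to *Tfap2a* were *Dlgap5*, *Spp2* and *Ehd2*, at distances of 1.70 to 1.80, against a median of 7.32 over all genes. Nearest to *Tfap2b* were *G3bp2*, *Smim15* and *Ccar2*, at 1.21 to 1.24, and to *Tfap2c* they were *Gjd3*, *Ngrn* and *Cep170b*, at 0.767 to 0.904. *Dlgap5* had 7, 8, 10 and 3 SOX9 peaks at the induced times, *Spp2* 8, 6, 9 and 5, and *Ehd2* 6, 6, 8 and 2. Their MLL3/4 peaks at D0, W1 and W2 were 10, 15 and 13 for *Dlgap5*, 11, 11 and 11 for *Spp2* and 11, 8 and 9 for *Ehd2*. *Gjd3* had 2, 4, 3 and 0 SOX9 peaks and 7, 3 and 3 MLL3/4 peaks.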

How the data were processed

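Peaks came from 16 pooled CNR lists for SOX9, the MYC tag and MLL3/4, with 2 samples behind each. The authors used Skewer for trimming, Bowtie2 2.2.9 for alignment to mm10, Picard against duplicates and SAMtools 1.3.1 to select fragments up to 120 bp. They combined replicates, made tracks with deepTools 3.1.2 and called peaks with SEACR (stringent, numeric threshold 0.01). The version of SEACR is not given in the sources used here. A peak's maximum in the pooled lists of SOX9 and of the MYC tag is in RPKM, scaled by the authors, who kept peaks above 1800. In the 7 pooled MLL3/4 lists the maximum is unscaled whole-number coverage signal. The other deposited score, the total signal, was summed over each peak by SEACR. The short fragments favour transcription factor footprints, and MLL3/4 was compared between lists by counts and overlaps of peaks and by rank by total signal, with ties at the better rank, while its coverage was not scaled between lists.

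Loci reached 50 kb to each side of GENCODE vM21 gene bodies on GRCm38.p6, and coordinates count from 1. Distances were measured from the centre of the region of maximum signal to the gene's outermost 5′ end. The RPKM of 1 fragment was the largest step of which all maxima of a list were whole multiples within 0.02. Peaks overlapping by at least 1 bp counted as shared. Words were searched on both strands in windows of 50 bp to each side of the maximum, with control windows 1 kb to each side. Positions within 1 kb of an annotated start counted as starts. Sequences were read from the RefSeq copy of the genome. Python 3.11.15, pandas 2.3.3, numpy 2.4.6, scipy 1.17.1, pysam 0.24.0 and matplotlib 3.10.9 were used, and overlap, merging and word counting were tested on simulated data.

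Groups came from the sample titles. No test was made, because each group was 1 pooled list. The named peaks were, per gene, the strongest of each list, the SOX9 sites of all 4 induced times, the gained MLL3/4 peaks of W1 with SOX9 and the strongest lost peak, with the 3 most similar genes. Others were named after their values were seen. The members, pathway genes and words were chosen with earlier results of these data known. Alternatives were windows of 10 and 100 kb, merging within 500 bp, the upper 50% of each list, lists of equal size, a maximum above 3600 RPKM, an overlap of 50% of the shorter peak, the no-DOX list of replicate 1 alone, word windows of 100 bp to each side, an AP-2 word with 4 free bases and promoters of 2.5 kb.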

Additional observations from a re-analysis of the deposited data

How the results depend on the processing

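Of 144 recomputed values, 43 moved by over 1.5 times a count or beyond the interval of a share, and the others did not. All 19 values under merging within 500 bp, 16 under an overlap of 50% of the shorter peak and 6 under promoters of 2.5 kb stayed. With 10 kb to each side, SOX9 peaks at the 3 loci numbered 6, 8 and 7 at W1, W2 and W6, MYC-tag peaks 0 with WT-SOX9 and 0 with dTA-SOX9, the lost shares of cultured MLL3/4 were 0% with WT-SOX9 and 0% with dHMG-SOX9, and the gained share with dTA-SOX9 was 0%. With 100 kb, MYC-tag peaks numbered 3 with WT-SOX9 and 6 with dTA-SOX9. In the upper 50% of each list, SOX9 peaks numbered 6, 8, 8 and 1 at W1, W2, W6 and W12 and the WT-SOX9 MYC-tag peak fell away (0). Above 3600 RPKM they numbered 2, 4, 2 and 1, and MYC-tag peaks 0 without DOX, 0 with WT-SOX9 and 1 with dTA-SOX9. In lists of equal size, SOX9 peaks numbered 8 at W2 and 8 at W6, and for cultured MLL3/4 0.0% were lost with WT-SOX9, dTA-SOX9 and dHMG-SOX9, while 85.7%, 75% and 75% were gained, with only 1 no-DOX peak of the 3 loci left to lose. The no-DOX list of replicate 1 alone, which is not labelled as cut at 1800 RPKM, held 2 MYC-tag peaks. Over all genes, 40.7% had at least 1 peak in it, beside 20.1% in the pooled list. In windows of 100 bp to each side, the AP-2 word stood in 6.88%, 7.15% and 5.27% of distal lost, kept and gained MLL3/4 windows at W1 and in 6.46%, 7.49% and 6.16% at W2, and with 4 free bases between its arms in 2.70%, 2.86% and 2.29% at W1 and 2.60%, 2.87% and 2.62% at W2. No paired analysis was possible because each group is 1 pooled list. Low fragment counts limit the MYC-tag peaks more than the SOX9 peaks, and the depth of the MLL3/4 lists is unknown.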

Other observations

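The DNA word that AP-2 proteins recognise, GCCNNNGGC, was counted in all MLL3/4 peaks of the series, whichever gene they lay at. Away from starts (more than 1 kb), it stood in 3.4% (3.1 to 3.73%) of the 12823 peaks lost at W1, in 3.58% (3.29 to 3.89%) of those kept and in 2.66% (2.38 to 2.98%) of the 10920 gained. Windows 1 kb away from the same peaks held it in 2.12%, 1.89% and 1.56%, so that the lower share of gained peaks went with a lower share beside them. At W2 the shares of lost and gained peaks were 3.07% and 3.17%, with overlapping intervals, and that of kept peaks was 3.64%. At starts the word stood in 6.81% of lost, 5.80% of kept and 4.13% of gained peaks at W1, beside 3.22%, 3.53% and 3.0% in the neighbouring windows. At W2 the start shares were 6.86%, 5.24% and 5.74%, so that the order of kept and gained peaks was not the same, beside 3.16%, 3.46% and 2.84%.

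In culture, distal peaks held the AP-2 word in 4.02% (3.77 to 4.29%) of those lost with WT-SOX9 and in 2.2% (1.79 to 2.69%) of those gained, beside 1.98% and 1.35% in the neighbouring windows. With dTA-SOX9 the shares were 4.29% and 2.49%, beside 2.02% and 1.58%, and with dHMG-SOX9, which lacks the DNA-binding domain, 3.84% and 3.77%, beside 1.85% and 2.25%. Among SOX9 peaks of sorted cells away from starts, the word stood, in order of induced time, in 3.55%, 4.63%, 3.43% and 2.42%, beside 1.83%, 2.06%, 1.91% and 1.53% in the neighbouring windows. In the distal MYC-tag peaks of WT-SOX9 it stood in 1.89%, beside 1.39%. These shares have counting intervals over windows and no replicate error, and whether base composition differs between the classes was not tested.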
